A study of Mus musculus with 12 samples.

Results

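Transcripts of base excision, nucleotide excision and mismatch repair genes were described in donor-derived mouse bone marrow progenitors. The 36 genes were taken by symbol from a table of 55450 genes, and each symbol occurred once. The cells were negative for lineage markers (Lin-), positive for the receptor Kit, and were sorted from recipients of competitive bone marrow transplants. The 12 libraries fall into 4 genotype labels of the donor cells with 3 libraries each: WT, Tet2 KO (Tet2KO), Id1 KO (Id1KO) and Tet2 KO + Id1KO (dKO). All 4 groups share the transplant setting. Age, sex, strain, the alleles and how many mice fed a library are not given in the sources used here. The titles carry 1 sample number per genotype, so the 3 libraries of a genotype may be repeats of 1 cell sample. All p-values therefore measure the spread between these libraries, which may be technical. The comparisons ask which repair transcripts differ with the Tet2 label, and whether that differs with the Id1 label.

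Base excision repair removes small base lesions: a DNA glycosylase cuts out the damaged base, an endonuclease nicks the abasic site, and a polymerase and a ligase fill and seal the gap. Nucleotide excision repair removes bulky lesions found either by a sensor complex anywhere in the genome or by a stalled RNA polymerase, after which the helicases of TFIIH open the helix and nucleases cut on both sides. Mismatch repair corrects replication errors through MutS complexes that bind the mismatch and MutL complexes that direct removal of the new strand. Tet2 encodes a dioxygenase that oxidises 5-methylcytosine, and the oxidised bases can be removed by base excision repair. Id1 encodes a protein that binds basic helix-loop-helix factors and keeps them from their DNA motif, the E-box.

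Total estimated counts per library ran from 15706407 to 19959183, and 14346 genes passed the filter on low counts. Levels are given in CPM, the usual depth-scaled count, here with TMM-scaled library totals, with SD over n = 3 libraries. The labels were not borne out by the targeted genes: Tet2 averaged 99.3 CPM in libraries labelled WT and 130 in those labelled Tet2KO, and Id1 stood at 3.96 CPM in Id1KO against 1.47 in WT. Id1 was also at 3.86 CPM in Tet2KO and 3.93 in dKO, so the WT libraries stood apart from the other 9. Gene totals cannot show the loss of a part of a gene, so genotype names below are library labels, and each direction rests on them. Kit was at 314 to 377 CPM and Ptprc, the CD45 gene, at 206 to 242 CPM in all libraries. The T cell gene Cd3e had at most 1 count and the neutrophil gene Ly6g at most 2. In all 12 pairs of libraries within a genotype the counts differed by more than sampling noise, with a median squared difference 1.18 to 2.1 times that of sampling alone, against 2.89 to 5.94 times between genotypes. The common coefficient of variation fitted by edgeR was 0.031. The libraries were kept apart, though these values cannot show whether those of a genotype are separate samples or repeats of 1 cell sample. In bulk RNA, fewer cells of a type and less RNA per cell cannot be told apart.

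Of the 36 repair genes, 35 were tested. The exception was Neil2, a glycosylase for oxidised bases (chromosome 14, 63182443 to 63193856), with 0 to 4 counts per library. Coordinates of genes come from GENCODE M21 (GRCm38, also called mm10). The lowest count of any tested repair gene was 56 in 1 library, for Neil1. Per kilobase of exon, Ddb1 was the most abundant at 106 CPM per kb over the 12 libraries. Apex1 followed at 82.7 CPM per kb, Parp1 at 76.7, Rad23b at 48.6 and Msh6 at 47.7. Exons of Pip4p1 on the opposite strand cover 61.7% of the exon length of Apex1, and per kb of the longest transcript Parp1 (105 CPM) lay above Apex1 (94.9). Ddb1 is an adaptor of the CUL4 ubiquitin ligase and is also used outside repair. At the other end stood the glycosylase Smug1 at 1.74 CPM per kb, the MutL gene Pms1 at 2.41 and the end-processing enzyme Aptx at 2.62. The order at this end depends on the length used: per kb of the longest transcript Pms1 was at 5.96 CPM and ranked 24 of 36 in place of 34, and the lowest tested were Smug1, Aptx and Neil1. The glycosylases other than Neil2 lay between 1.74 and 9.74 CPM per kb, below Apex1, which acts after all of them.

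**Figure D1:**
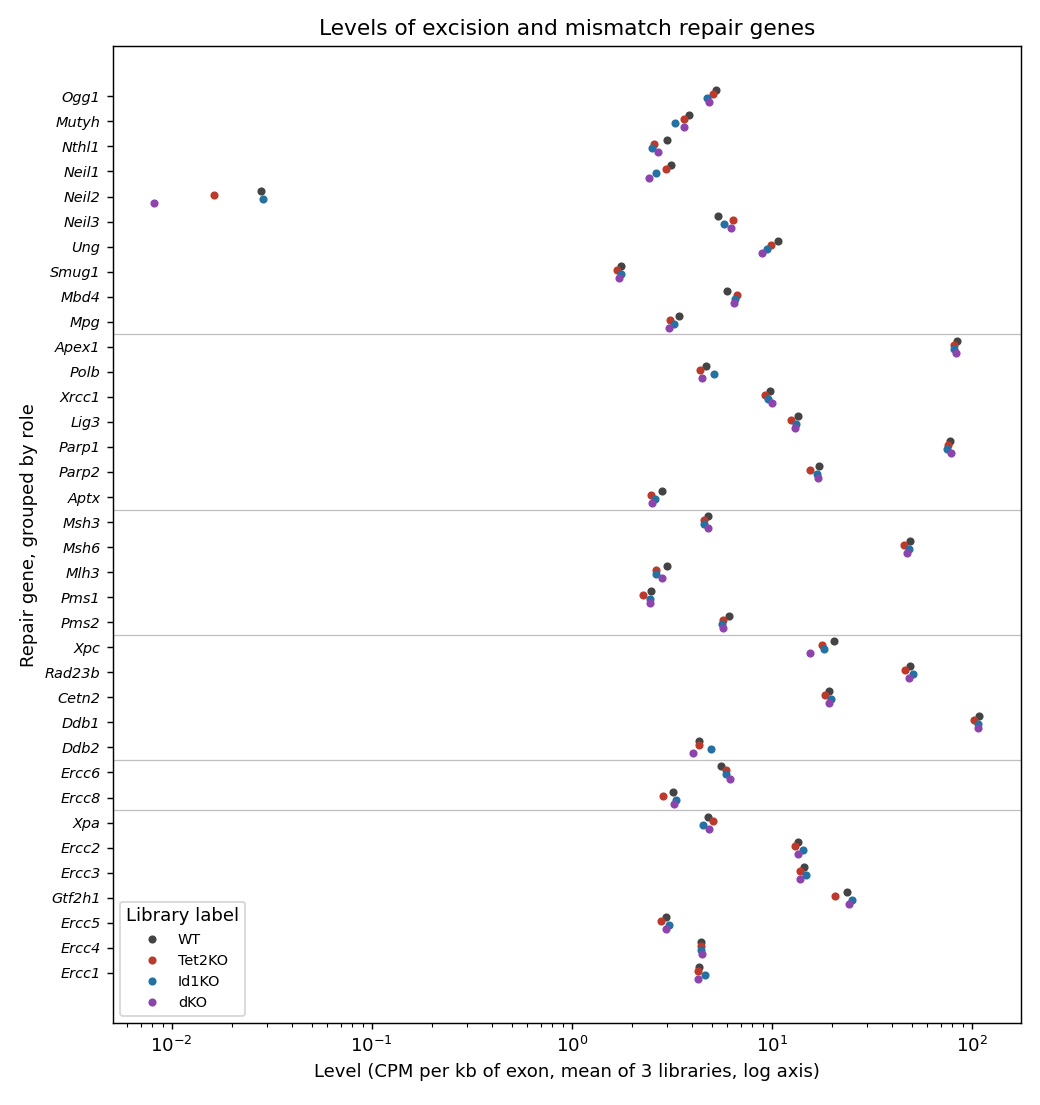
Level of each of 36 repair genes in CPM per kb of exon on a log axis, as the mean of 3 libraries for each of 4 library labels, with lines between groups of one role. The 4 points of a gene lie close together compared with the distance between genes, from 106 CPM per kb over all libraries for Ddb1 to 0.0203 for Neil2.

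Ratios of levels per kb of exon were taken between partner genes within each library (mean ± SD, n = 3). The ratio of Msh6 to Msh3 was 10.2 ± 0.42 for libraries labelled WT, 9.98 ± 0.4 for Tet2KO, 10.6 ± 0.51 for Id1KO and 9.83 ± 0.15 for dKO. Both genes encode MutS subunits that pair with one shared partner. The size of this ratio rests on the length used: per kb of the longest transcript the levels were 48.7 CPM for Msh6 and 12.4 for Msh3. Parp1 and Parp2, which sense strand breaks, had a ratio of 4.48 ± 0.14 for WT, 4.89 ± 0.14 for Tet2KO, 4.44 ± 0.24 for Id1KO and 4.58 ± 0.32 for dKO. Ercc4 and Ercc1, which form a nuclease together, had a ratio of 1.03 ± 0.1 for WT, 1.04 ± 0.1 for Tet2KO, 0.965 ± 0.13 for Id1KO and 1.05 ± 0.093 for dKO. Per kb of the longest transcript Ercc4 was at 5.85 CPM and Ercc1 at 9.94, so that their ratio near 1 also depends on the length used. The ratio of Rad23b to Xpc, partners in damage recognition, did not overlap between libraries labelled WT (2.34 to 2.48) and dKO (2.98 to 3.21). It was 2.46 to 2.65 in Tet2KO and 2.75 to 2.91 in Id1KO. The ratio of Ung to Smug1 did not overlap between WT (5.73 to 6.31) and dKO (5.09 to 5.37) either. Nor did that of Ercc6 to Ercc8, at 1.74 to 1.78 in WT and 1.83 to 1.99 in dKO. All other pairs taken overlapped between WT and dKO. Some pairs did not overlap between WT and Tet2KO or Id1KO, among them Parp1 to Parp2 (4.32 to 4.6 in WT, 4.77 to 5.05 in Tet2KO). These ratios were not tested.

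Changes among the repair genes were small, and their number was close to or below that among all genes in every contrast. Called means an edgeR adjusted p under 0.05 over all 14346 genes. In Tet2KO against WT, 12 of 35 genes were called, 34.3%, against 32.8% of all genes; 10 were lower and 2 higher, while 16.2% of all genes were lower and 16.6% higher. Leaving out WT replicate 2 gave 6 calls. Leaving out Tet2KO replicate 2 gave 7, not all of them among the 12. In Id1KO against WT, 3 genes were called, all lower, against 15% of all genes, 7.77% lower and 7.26% higher; 1 was left without WT replicate 3, Id1KO replicate 1 or Id1KO replicate 3. In dKO against WT, 4 were called, 2 in each direction, against 19.2% of all genes, 8.97% lower and 10.2% higher. In dKO against Tet2KO, 5 were called, 3 higher and 2 lower, against 26.4% of all genes, 13.1% higher and 13.4% lower. Without Tet2KO replicate 1 there were 2, and without Tet2KO replicate 2 or 3, or dKO replicate 2 or 3, there were 3. In dKO against Id1KO, 3 were called, all lower, against 19.3% of all genes, 8.7% lower and 10.6% higher, and 1 was left without Id1KO replicate 1 or 3 or dKO replicate 1. In all, 15 of 36 genes had no overlap between the libraries of Tet2KO and WT, against 46% of all genes tested. It was 12 for Id1KO and WT (32.7% of all genes), 13 for dKO and WT (33.1%), 11 for dKO and Tet2KO (39.9%) and 8 for dKO and Id1KO (33.2%). The 13 for dKO and WT include Neil2, which failed the filter on low counts, while the shares cover tested genes only. The interaction, (dKO minus Tet2KO) minus (Id1KO minus WT), called 1 repair gene, with a positive value, against 14.5% of all genes, 7.46% higher and 7.03% lower.

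**Figure D2:**
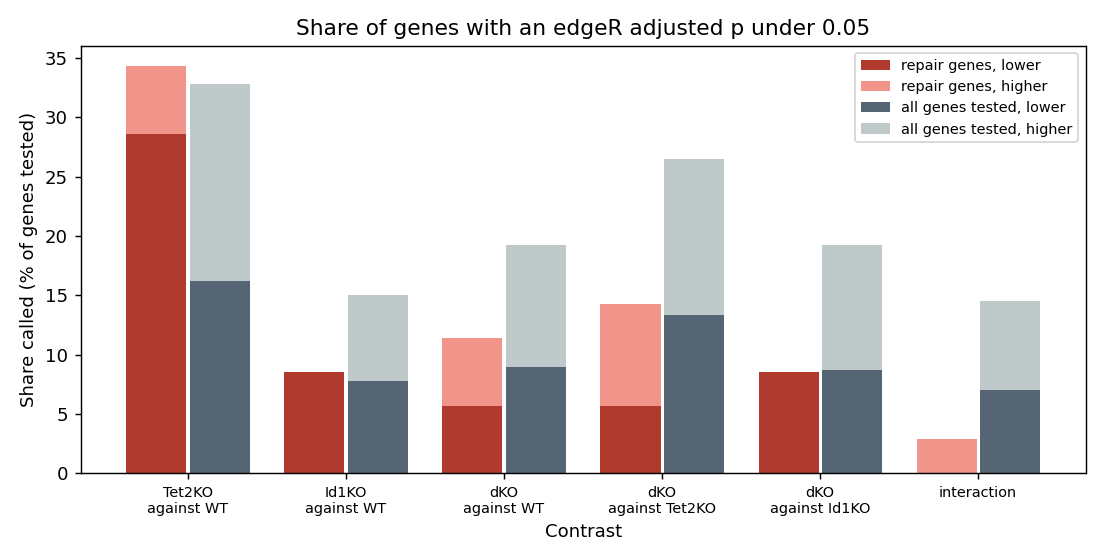
Share of genes called higher or lower (percent of genes tested, edgeR adjusted p under 0.05) for 35 repair genes and for 14346 genes, in 5 pairwise contrasts and the interaction. The share among repair genes is 34.3% against 32.8% in Tet2KO against WT and lies below that of all genes in the other contrasts.

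The median log2 fold change of the 35 genes was -0.08 in Tet2KO against WT, where 31 of 35 values were negative, beside a median of 0.00 and 7248 of 14346 negative values for all genes. It was -0.02 in Id1KO against WT and -0.02 in dKO against WT. With dKO set against Tet2KO it was 0.04, and against Id1KO -0.03. Tet2KO against WT and dKO against Tet2KO share the Tet2KO libraries. Among the repair genes 20 of 35, 57.1%, were called in no contrast, against 47.2% of all genes. They were Ogg1, Mutyh, Nthl1, Neil1, Smug1, Mpg, Apex1, Xrcc1, Parp1, Aptx, Msh3, Pms1, Pms2, Cetn2, Xpa, Ercc1, Ercc2, Ercc3, Ercc4 and Ercc5. The 95% interval of the log2 fold change lay within ±0.5 for all 35 tested genes when Tet2KO was set against WT or dKO against Id1KO. In each of the other 3 pairwise contrasts it did so for 34, the exception being Neil1.

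**Figure D3:**
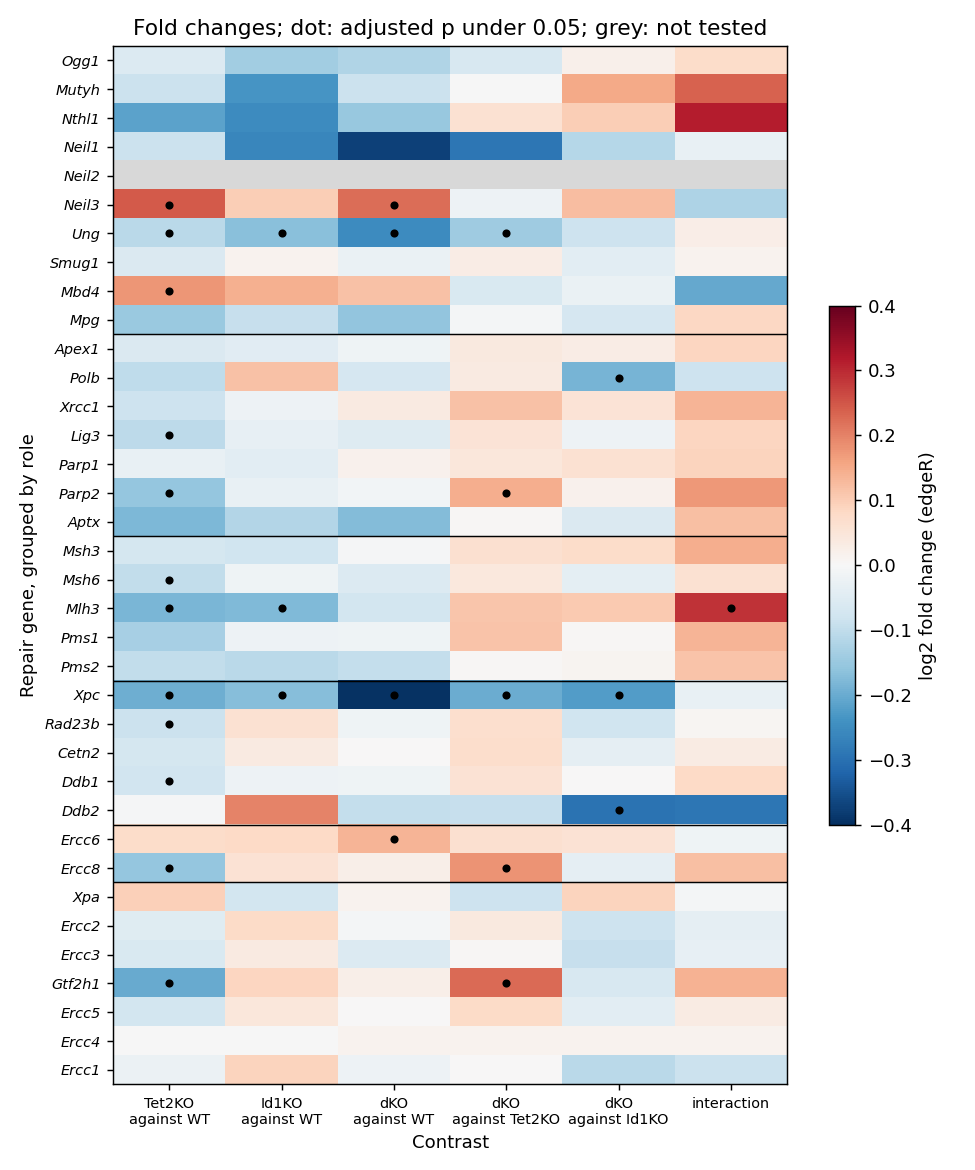
Log2 fold change of 36 repair genes (rows, grouped by role) in 5 pairwise contrasts and the interaction (columns), on a colour scale from -0.4 to 0.4, with a dot for an edgeR adjusted p under 0.05 and grey for Neil2, which was not tested. Xpc is called in all 5 pairwise contrasts and reaches -0.40 in dKO against WT.

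Markers of cell composition moved in every contrast. In dKO against Tet2KO, 18 of 20 erythroid genes were higher and 1 lower. In Id1KO against WT, 6 of 8 monocyte and dendritic genes tested were lower and 1 higher. In dKO against Id1KO, 6 of 7 megakaryocyte genes tested were lower and none higher. Fold changes and calls below are for Tet2KO against WT, the contrast with the largest number of repair gene calls. Of 20 erythroid genes, all tested, 18 were lower and 1 higher in Tet2KO against WT, with a median log2 fold change of -0.83. Their summed level was 2040 to 2080 CPM for libraries labelled WT, 1290 to 1300 for Tet2KO, 2230 to 2260 for Id1KO and 2040 to 2070 for dKO, and none was at 0. Of 24 S phase genes, 10 were lower and 1 higher in Tet2KO against WT, with a summed level of 5040 to 5160 CPM for WT, 4810 to 4870 for Tet2KO, 4950 to 5000 for Id1KO and 5040 to 5140 for dKO. Lists of other cell types moved too. Of 10 neutrophil genes tested, 5 were higher, among them Mpo (0.17), and 3 lower, Camp (-0.93), Ngp (-0.49) and Cebpe (-0.22). The sum of the 11 listed, 14100 to 14200 CPM for WT and 15600 to 15800 for Tet2KO, was mostly Mpo, at 9910 and 11100 CPM. Higher and lower calls were 8 and 1 of 12 stem and progenitor genes, and 5 and 1 of 8 monocyte and dendritic genes tested. They were 5 and 0 of 9 lymphoid genes tested and 1 and 1 of 7 megakaryocyte genes tested. For mast, basophil and eosinophil genes they were 3 and 3 of 8. The 36 repair genes summed to 2760 to 2810 CPM for WT and 2630 to 2670 for Tet2KO. Their sum was 2740 to 2780 CPM for Id1KO and 2710 to 2750 for dKO. The Tet2KO libraries were lowest for the repair, erythroid and S phase lists. They were highest for the stem and progenitor, neutrophil, monocyte and dendritic, lymphoid, and stroma and endothelium lists. The mast, basophil and eosinophil list was lowest in dKO (307 to 314 CPM), and the megakaryocyte list was highest in Id1KO (225 to 237). The part of these markers in the repair gene values was not tested.

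The promoters of the repair genes called most often are shown because Id1 acts on factors that bind the E-box, CANNTG. The genes with most calls over the 6 contrasts were Xpc with 5, Ung with 4 and Mlh3 with 3. Neil3, Gtf2h1, Parp2 and Ercc8 tied at 2, and Neil3 and Gtf2h1 were taken for the larger sum of absolute log2 fold changes (0.832 and 0.744, against 0.529 and 0.572). Ung, Mlh3, Neil3 and Gtf2h1 are printed. Each window runs from 250 bases before to 50 after a RefSeq start site on GRCm38.p6, 5′ to 3′ on the strand of the gene, with each E-box in capitals. The windows are chr5:114130185-114130484 (plus strand) for Ung, chr12:85270550-85270849 (minus) for Mlh3, chr8:53639016-53639315 (minus) for Neil3 and chr7:46795844-46796143 (plus) for Gtf2h1.
Ung: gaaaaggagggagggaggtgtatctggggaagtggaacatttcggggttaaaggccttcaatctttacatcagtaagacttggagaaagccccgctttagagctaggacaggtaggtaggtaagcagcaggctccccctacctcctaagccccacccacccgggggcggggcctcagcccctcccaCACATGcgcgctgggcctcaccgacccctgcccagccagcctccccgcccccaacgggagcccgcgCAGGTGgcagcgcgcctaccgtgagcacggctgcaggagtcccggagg
Mlh3: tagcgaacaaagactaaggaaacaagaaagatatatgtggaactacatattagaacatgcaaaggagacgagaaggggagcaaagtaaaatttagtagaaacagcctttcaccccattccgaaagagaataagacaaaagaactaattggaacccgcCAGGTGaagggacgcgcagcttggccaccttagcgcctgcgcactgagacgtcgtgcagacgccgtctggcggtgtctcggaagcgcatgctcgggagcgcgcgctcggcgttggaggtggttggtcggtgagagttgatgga
Neil3: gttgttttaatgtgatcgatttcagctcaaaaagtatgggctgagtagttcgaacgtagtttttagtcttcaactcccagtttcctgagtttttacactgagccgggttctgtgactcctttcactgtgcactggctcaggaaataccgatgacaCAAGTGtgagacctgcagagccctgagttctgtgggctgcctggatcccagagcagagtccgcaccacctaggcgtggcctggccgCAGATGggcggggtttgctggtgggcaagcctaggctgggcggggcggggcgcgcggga
Gtf2h1: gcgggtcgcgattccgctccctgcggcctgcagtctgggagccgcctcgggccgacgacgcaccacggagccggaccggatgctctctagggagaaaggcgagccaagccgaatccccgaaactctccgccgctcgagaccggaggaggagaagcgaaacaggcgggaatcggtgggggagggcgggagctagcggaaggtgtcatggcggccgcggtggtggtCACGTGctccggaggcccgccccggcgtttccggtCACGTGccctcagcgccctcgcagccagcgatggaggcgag
Ung, Neil3 and Gtf2h1 each held 2 matches and Mlh3 held 1, searched on both strands. CAGGTG occurred in Ung and Mlh3, and both matches of Gtf2h1 were CACGTG. At least 1 CANNTG occurred for 24 of the 31 repair genes with a window, 77.4%, and for 75% of all 27025 genes with a window. A match is a run of letters and not a shown binding site.

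Among the glycosylases, Ung was lower and Neil3 and Mbd4 higher under some labels, and the other 6 tested had no call. In Tet2KO against WT 3 of 9 were called, 33.3% against 32.8% of all genes. In dKO against WT 2 were called, 22.2% against 19.2%. In Id1KO against WT 1 was called, 11.1% against 15%, and in dKO against Tet2KO 1, 11.1% against 26.4%. None was called in dKO against Id1KO or for the interaction, against 19.3% and 14.5%. Ung (ENSMUSG00000029591.14, chromosome 5, 114130386 to 114139323) encodes the glycosylase that removes uracil from DNA. Its level in the 3 libraries was 56.8, 57.6 and 60.4 CPM for WT, 54.1, 54.6 and 53.3 for Tet2KO, 50.6, 54.6 and 50.3 for Id1KO and 48.6, 48.6 and 49.7 for dKO. Every library labelled WT lay above the other 9, and every dKO library below the other 9. On the log2 scale the fold change was -0.25 in dKO against WT (SE 0.042, adjusted p = 0.000213), -0.17 in Id1KO against WT (SE 0.041, adjusted p = 0.00813), -0.14 in dKO against Tet2KO (SE 0.043, adjusted p = 0.0189) and -0.11 in Tet2KO against WT (SE 0.041, adjusted p = 0.0467). The dKO against WT call was kept in each fit that left out 1 library. Leaving out 1 library ended the Id1KO call for WT replicate 3 (0.0603), Id1KO replicate 1 (0.0514) and Id1KO replicate 3 (0.0506), and the dKO against Tet2KO call for Tet2KO replicate 1 (0.0509) and 2 (0.0592). It ended the Tet2KO against WT call for all libraries except WT replicate 1 and Id1KO replicate 2, the highest adjusted p being 0.228 when WT replicate 3 was absent.

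Neil3 (ENSMUSG00000039396.11, chromosome 8, 53586867 to 53639065) encodes a glycosylase for oxidised bases that is known to be expressed in dividing cells. Its level was 31.2, 28 and 30.5 CPM for WT, 34.8, 35.5 and 35.9 for Tet2KO, 32, 30.4 and 33.8 for Id1KO and 34.5, 36.9 and 33.3 for dKO. The WT libraries lay below all Tet2KO and dKO libraries, while Id1KO overlapped both WT and dKO. Fitted log2 fold changes were 0.24 in Tet2KO against WT (SE 0.056, adjusted p = 0.00208) and 0.22 in dKO against WT (SE 0.056, adjusted p = 0.00793). Without WT replicate 2 the second had an adjusted p of 0.0502. Of 20 G2 and M phase genes, 19 were higher and none lower in dKO against WT, where their summed level was 3730 to 3820 CPM against 3330 to 3380. In Tet2KO against WT, 2 were higher and 2 lower, with 3470 to 3490 CPM in Tet2KO. In Id1KO against WT, where Neil3 had no call, 13 were higher and none lower, with 3550 to 3640 CPM in Id1KO. The part of these genes in the Neil3 values was not tested.

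Mbd4 (ENSMUSG00000030322.12, chromosome 6, 115840697 to 115853371) encodes a glycosylase that removes thymine or uracil opposite guanine at CpG sites. Its level was 32.1, 31.2 and 30.9 CPM for WT, 35.2, 37.2 and 34.2 for Tet2KO, 34.9, 35 and 34 for Id1KO and 33.9, 36 and 32.2 for dKO. The WT libraries were the lowest 3 of the 12. The call was for Tet2KO against WT alone, at a log2 fold change of 0.18 (SE 0.051, adjusted p = 0.0105), and was lost without Tet2KO replicate 2 (0.0576). In Id1KO against WT the value was 0.14 with an adjusted p of 0.0661. Stretches of 100 to 160 bp of Mbd4 exons match 131 other genes at 95% identity or more, so repeat-like sequence may affect its count. Neil3 shares such stretches with 7 genes.

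The glycosylases without a call were Ogg1, Mutyh, Nthl1, Neil1, Smug1 and Mpg. Neil1, which removes oxidised pyrimidines, had the most negative value among them, -0.37 in dKO against WT (adjusted p = 0.0804). Its 12 libraries ran from 3.55 to 6.48 CPM, and its 95% interval in that contrast reached -0.681. Mutyh, which removes adenine opposite oxidised guanine, had -0.24 in Id1KO against WT (adjusted p = 0.0903). Nthl1 had -0.21 in Tet2KO against WT (adjusted p = 0.152). Tdg, the glycosylase that excises the oxidised forms of 5-methylcytosine made by TET enzymes, is on the wider list below and was called in no contrast, with log2 fold changes of -0.04 for Tet2KO and -0.05 for dKO, each against WT.

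**Figure D4:**
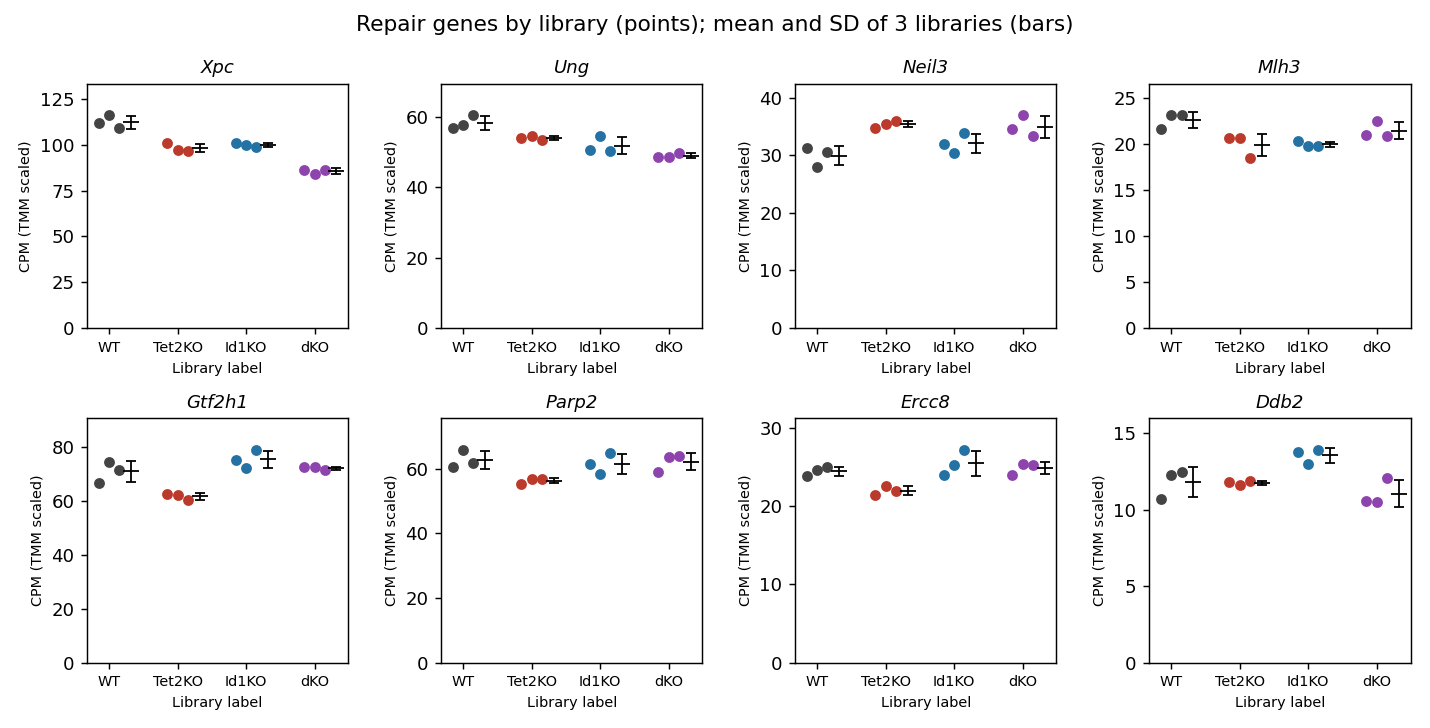
Level in each library (points, CPM after TMM scaling, axes from 0) with the mean and SD of 3 libraries (bars) for Xpc, Ung, Neil3, Mlh3, Gtf2h1, Parp2, Ercc8 and Ddb2 under the 4 library labels. Xpc lies at 109 to 116 CPM in WT and 83.8 to 86.5 in dKO with both other labels between, while Gtf2h1 is lowest in Tet2KO.

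Among 7 genes for abasic sites and single-strand breaks, 2 fell in Tet2KO against WT, 28.6% against 32.8% of all genes, and all 7 values were negative. In dKO against Tet2KO all 7 were positive and 1 passed the test, 14.3% against 26.4% of all genes. Both contrasts use the Tet2KO libraries. Parp2 (ENSMUSG00000036023.6, chromosome 14, 50807841 to 50821301) encodes a poly(ADP-ribose) polymerase that senses breaks. Its level was 60.4, 65.7 and 61.9 CPM for WT, 55.3, 56.9 and 56.8 for Tet2KO, 61.4, 58.4 and 64.7 for Id1KO and 59.1, 63.5 and 64 for dKO. The 3 Tet2KO libraries lay below the other 9, which overlapped each other. The log2 fold change was -0.15 in Tet2KO against WT (SE 0.045, adjusted p = 0.0123) and 0.14 in dKO against Tet2KO (SE 0.046, adjusted p = 0.0258). The former was lost without WT replicate 2 (0.0919). The latter was lost without Tet2KO replicate 1 (0.0859), 2 (0.0538) or 3 (0.0586), dKO replicate 2 (0.0827) or dKO replicate 3 (0.108), and with DESeq2 (0.0567).

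Lig3, the ligase that seals single-strand nicks with Xrcc1, was at 96.7 to 99.4 CPM in WT and 91 to 91.8 in Tet2KO (log2 fold change -0.11, SE 0.028, adjusted p = 0.00691; 0.0525 with DESeq2). Exons of Rffl on the opposite strand cover 25.1% of its exon length. Polb (ENSMUSG00000031536.6, chromosome 8, 22628126 to 22653435) encodes the polymerase that fills the gap. Its level was 19, 19.3 and 17.3 CPM for WT, 18.1, 16.9 and 16.9 for Tet2KO, 21.5, 19 and 20 for Id1KO and 17.5, 17.8 and 17.8 for dKO. The Id1KO libraries lay above the dKO libraries and overlapped WT. The log2 fold change in dKO against Id1KO was -0.19 (SE 0.065, adjusted p = 0.0491), and 10 of 12 fits without 1 library lost the call, up to 0.201 without Id1KO replicate 1; the 2 that kept it were without WT replicate 3 and without Id1KO replicate 2. DESeq2 did not keep the Polb call. Apex1, Xrcc1, Parp1 and Aptx had no call. Aptx, which removes AMP from failed ligations, was nearest, at -0.18 in Tet2KO against WT (adjusted p = 0.0605).

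Of 5 mismatch repair genes, 2 were lower in Tet2KO against WT, 40% against 32.8% of all genes, and 1 in Id1KO against WT, 20% against 15%. These contrasts share the WT libraries. Mlh3 (ENSMUSG00000021245.15, chromosome 12, 85234520 to 85270599) encodes a MutL subunit that also acts in meiotic crossing over. Its level was 21.6, 23.1 and 23.1 CPM for WT, 20.6, 20.6 and 18.5 for Tet2KO, 20.3, 19.8 and 19.8 for Id1KO and 21, 22.5 and 20.9 for dKO. The Tet2KO and Id1KO libraries lay below all WT libraries, and dKO overlapped WT. On the log2 scale the fold change was -0.18 in Tet2KO against WT (SE 0.059, adjusted p = 0.0217) and -0.18 in Id1KO against WT (SE 0.059, adjusted p = 0.0462). The Tet2KO call was lost without WT replicate 2 (0.0865), WT replicate 3 (0.0805) or Tet2KO replicate 3 (0.163). The Id1KO call was lost in all fits without 1 library except those without WT replicate 1, Tet2KO replicate 3 or dKO replicate 2, up to 0.145 without WT replicate 2. DESeq2 kept neither call of Mlh3.

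Mlh3 was also the repair gene called for the interaction: the log2 difference between dKO and Tet2KO exceeded that between Id1KO and WT by 0.29 (SE 0.085, 95% interval 0.112 to 0.466, adjusted p = 0.0265). Leaving out WT replicate 2 (0.0662), WT replicate 3 (0.0651), Tet2KO replicate 3 (0.0907), Id1KO replicate 3 (0.0544) or dKO replicate 2 (0.0674) ended that call. It was also lost with DESeq2. The number of repair genes called for the interaction was 0 without WT replicate 2, WT replicate 3 or Tet2KO replicate 3, and 2 without WT replicate 1, dKO replicate 1 or dKO replicate 2. Msh6, a MutS subunit for base mismatches, was at 212 to 215 CPM in WT and 193 to 205 in Tet2KO (log2 fold change -0.10, SE 0.028, adjusted p = 0.00987), and lost its call without Tet2KO replicate 2 (0.0927). Msh3, Pms1 and Pms2 had no call. Pms2, a MutL endonuclease subunit, had -0.10 in Tet2KO against WT (adjusted p = 0.0799).

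Xpc had the most calls of the repair genes, lower in all 5 pairwise contrasts. It encodes the sensor that binds distorted DNA in global genome nucleotide excision repair (ENSMUSG00000030094.8, chromosome 6, 91489305 to 91515888). Its level was 112, 116 and 109 CPM for WT, 101, 97.3 and 96.4 for Tet2KO, 101, 100 and 98.7 for Id1KO and 86.5, 83.8 and 86.5 for dKO. Every WT library lay above all others and every dKO library below all others, while Tet2KO and Id1KO overlapped. Xpc fell by 24% in dKO against WT (log2 fold change -0.40, SE 0.033, adjusted p = 3.22e-08). The other log2 fold changes were -0.20 in Tet2KO against WT (SE 0.032, adjusted p = 9.29e-05) and -0.17 in Id1KO against WT (SE 0.032, adjusted p = 0.00097). They were -0.20 in dKO against Tet2KO (SE 0.034, adjusted p = 0.000181) and -0.23 in dKO against Id1KO (SE 0.033, adjusted p = 5.51e-05).

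Of all 14346 genes, 17 were called lower in all 5 pairwise contrasts, 0.118%, and Xpc was the 1 repair gene among them. These contrasts share libraries and are not independent. The interaction for Xpc was -0.03 (SE 0.046, 95% interval -0.127 to 0.0668, adjusted p = 0.731). All 5 calls were kept without each of the 12 libraries. With a test against a 1.2-fold change, the dKO against WT call was kept, and no other call among the repair genes was. When the libraries of each genotype were summed to 1, a model with additive Tet2 and Id1 labels called none of the 35 repair genes for either label in edgeR. In that model 566 of 16003 genes, 3.54%, were called for the Tet2 label and 38, 0.237%, for the Id1 label. An unadjusted edgeR p under 0.05 was found for 1 and 3 of the 35 repair genes, beside 16.4% and 10.8% of all genes. Xpc had -0.21 for the Tet2 label (SE 0.057, adjusted p = 0.0751) and -0.18 for the Id1 label (SE 0.057, adjusted p = 0.282), with 1 residual degree of freedom.

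Xpc works with Rad23b and Cetn2, and with the Ddb1 and Ddb2 complex that finds ultraviolet lesions. Rad23b, which stabilises Xpc, was at 274 to 286 CPM for WT, 260 to 267 for Tet2KO, 289 to 300 for Id1KO and 269 to 282 for dKO. It was lower in Tet2KO against WT (log2 fold change -0.09, SE 0.028, adjusted p = 0.0215), a call lost without WT replicate 2 (0.123), WT replicate 3 (0.0851) or any of the 3 Tet2KO libraries (0.0867, 0.0636 and 0.0525). Ddb1 was at 692 to 703 CPM in WT and 650 to 667 in Tet2KO (-0.08, SE 0.024, adjusted p = 0.0169), lost without WT replicate 2 (0.0765) or Tet2KO replicate 2 (0.115). Cetn2 had no call.

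Ddb2 (ENSMUSG00000002109.14, chromosome 2, 91211572 to 91236982) encodes the lesion-binding subunit, and its human counterpart is a known p53 target. Its level was 10.7, 12.3 and 12.5 CPM for WT, 11.8, 11.6 and 11.9 for Tet2KO, 13.8, 13 and 13.9 for Id1KO and 10.6, 10.5 and 12.1 for dKO. The Id1KO libraries were the highest 3 of the 12, and the other labels overlapped. The log2 fold change in dKO against Id1KO was -0.29 (SE 0.084, adjusted p = 0.0173), lost without Id1KO replicate 1 (0.0518) or 3 (0.0547) or dKO replicate 1 (0.0651) or 2 (0.0643), and with DESeq2 (0.0627). Acp2 overlaps 23.8% of its exon length on the opposite strand. Of 17 listed p53 targets, 2 were lower and 0 higher in that contrast. Their summed level was 401 to 424 CPM in Id1KO, 386 to 391 in dKO, 369 to 381 in WT and 367 to 379 in Tet2KO. The p53 link is given for the human gene only. Whether p53 acts on mouse Ddb2, and the part of these targets in the Ddb2 values, was not tested.

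The transcription-coupled genes Ercc6 and Ercc8 moved in different contrasts. Ercc6 (ENSMUSG00000054051.7, chromosome 14, 32513521 to 32580990) encodes the CSB ATPase, which binds stalled RNA polymerase. Its level was 71.1, 72.2 and 72.5 CPM for WT, 78, 70.9 and 78 for Tet2KO, 73.8, 75 and 79.2 for Id1KO and 80.2, 77.5 and 79.4 for dKO. The dKO libraries lay above all WT libraries, and Tet2KO spanned both. The log2 fold change in dKO against WT was 0.14 (SE 0.040, adjusted p = 0.0195), lost without dKO replicate 1 (0.055) and with DESeq2 (0.0526). Ercc6 has stretches of 101 to 154 bp that match 17 other genes at 95% identity or more.

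Ercc8 (ENSMUSG00000021694.18, chromosome 13, 108158731 to 108195364) encodes CSA, a ubiquitin ligase subunit that acts with CSB. Its level was 23.8, 24.6 and 24.9 CPM for WT, 21.4, 22.5 and 21.9 for Tet2KO, 24, 25.2 and 27.1 for Id1KO and 24, 25.3 and 25.2 for dKO. The Tet2KO libraries were the lowest 3 of the 12. Fitted log2 fold changes were -0.16 in Tet2KO against WT (SE 0.056, adjusted p = 0.037) and 0.18 in dKO against Tet2KO (SE 0.057, adjusted p = 0.0244). The former was lost without WT replicate 2 (0.104) or 3 (0.116), any Tet2KO library (0.111, 0.0602 and 0.0955) or dKO replicate 3 (0.0511), and the latter without Tet2KO replicate 1 (0.0821) or 3 (0.0642) or dKO replicate 2 (0.0735) or 3 (0.077). With DESeq2 the adjusted p was 0.155 and 0.108.

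Of 7 genes for opening and incision, Gtf2h1 passed the test in 2 contrasts and the other 6, Xpa, Ercc1, Ercc2, Ercc3, Ercc4 and Ercc5, in none. Gtf2h1 (ENSMUSG00000006599.13, chromosome 7, 46796103 to 46823800) encodes the p62 subunit of TFIIH, which also serves transcription initiation. Its level was 66.8, 74.6 and 71.4 CPM for WT, 62.4, 62.3 and 60.3 for Tet2KO, 75, 72.3 and 78.8 for Id1KO and 72.5, 72.4 and 71.5 for dKO. The Tet2KO libraries lay below the other 9. The log2 fold change was -0.20 in Tet2KO against WT (SE 0.042, adjusted p = 0.000968) and 0.23 in dKO against Tet2KO (SE 0.043, adjusted p = 0.000562), and both calls were kept without each library. Its interaction of 0.14 did not pass (adjusted p = 0.124).

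The 10 subunits of TFIIH, a grouping made after values were seen, joined Gtf2h1, Ercc2 and Ercc3 with 7 genes of the wider list. In Tet2KO against WT 5 were lower and none higher, 50% against 32.8% of all genes, with a median log2 fold change of -0.16. When dKO was set against Tet2KO, 5 were higher and none lower, 50% against 26.4% of all genes, with a median of 0.11. Their summed level was 400, 411 and 403 CPM for WT, 366, 368 and 363 for Tet2KO, 408, 404 and 411 for Id1KO and 404, 392 and 404 for dKO. The Tet2KO sums lay below the other 9. Tet2KO against WT and dKO against Tet2KO share the Tet2KO libraries, and Gtf2h1 was already called in both. The counts are therefore no separate support for a pattern of TFIIH. None of the 10 was called in Id1KO against WT or dKO against Id1KO, beside 15% and 19.3% of all genes. In dKO against WT 1 was lower, 10% against 19.2% of all genes. For the interaction 2 were higher, 20% against 14.5%.

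The wider list held 49 other genes of these pathways, such as replication polymerases, clamp loaders and end-processing enzymes, and all were tested. In Tet2KO against WT 21 were lower and 2 higher, 46.9% against 32.8% of all genes, with a median log2 fold change of -0.09. Those lower included Hmces (-0.37), Gtf2h3 (-0.34) and Rfc4 (-0.31). Hmces shields abasic sites, Gtf2h3 is a TFIIH subunit and Rfc4 is part of the clamp loader. In dKO against Tet2KO 15 were higher and 4 lower, 38.8% against 26.4% of all genes, with a median of 0.06. Those higher included Gtf2h3 (0.34), Rpa3 (0.31) and Aplf (0.28). In Id1KO against WT 5 were lower and none higher, 10.2% against 15% of all genes. In dKO against WT 3 were lower and 2 higher, 10.2% against 19.2%, and in dKO against Id1KO 4 were higher and 1 lower, 10.2% against 19.3%. Apex2, a second abasic endonuclease, was higher in Tet2KO against WT (0.31, adjusted p = 0.00931), for dKO against WT (0.41) and for dKO against Id1KO (0.33). For the interaction 11 were higher and 1 lower, 24.5% against 14.5% of all genes, with a median of 0.08.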

How the data were processed

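Per the labels' protocols, RNA of sorted Lin- Kit+ donor cells was purified on columns, depleted of ribosomal RNA and made into stranded libraries. The values deposited by the authors are estimated counts per gene, not normalized. STAR, RSEM and mm10 are named without versions, per the submitters' processing notes, and the strand setting of counting is not given in the sources used here. All 55450 identifiers matched GENCODE M21.

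Estimated counts were rounded and fitted in edgeR 4.0.16 (R 4.3.3): filterByExpr with a minimum count of 10, TMM scaling, 1 mean per genotype over 12 libraries, quasi-likelihood F tests, Benjamini-Hochberg adjustment over 14346 genes and a threshold of 0.05. SE is the log2 fold change divided by the square root of F. The fitting was tested on simulated data. Alternatives were DESeq2 1.42.0, other scalings, filters and thresholds, a replicate block, libraries left out and summed libraries. Exon lengths are from GENCODE, and near-identical stretches (at least 100 bp at 95% identity) from BLAST 2.17.0. With 3 against 3 libraries an exact two-sided permutation test cannot go below 0.1, so none was used.

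The repair genes and lists were chosen with earlier results of these data known. Full values are given for genes called without overlap of the libraries compared, at most 3 per direction and contrast by log2 fold change, and for Mlh3 in the interaction. Promoters were chosen for 5 genes by the number of contrasts called, ties going to the larger sum of absolute log2 fold changes; Xpc is named only.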

Additional observations from a re-analysis of the deposited data

Results flagged for a closer look

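Mlh3 had an interaction that passed the test, meaning that the change with the Id1 label differed between the Tet2 labels. The log2 difference was 0.29 (SE 0.085, edgeR adjusted p = 0.0265). Within the libraries without the Tet2KO label, Mlh3 averaged 22.6 ± 0.88 CPM in WT and 20 ± 0.3 in Id1KO (SD, n = 3). Within those with it, the mean was 19.9 ± 1.2 in Tet2KO and 21.5 ± 0.85 in dKO. The log2 fold change was -0.18 for Id1KO against WT (adjusted p = 0.0462) and 0.11 for dKO against Tet2KO (adjusted p = 0.194). It was 1 of 35 repair genes called, beside 14.5% of all genes. With DESeq2 the interaction call was lost.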

How the results depend on the processing

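Counts of repair genes called depended on the threshold, the tool and single libraries. With DESeq2 they were 8 in Tet2KO against WT, 2 in Id1KO against WT, 3 in dKO against WT, 2 in dKO against Tet2KO, 1 in dKO against Id1KO and 0 for the interaction. At a threshold of 0.01 they were 5 in Tet2KO against WT, 2 in dKO against Tet2KO, 1 in dKO against Id1KO and 0 for the interaction. Tested against a 1.2-fold change, 1 was left in dKO against WT and 0 in each of the other 4 pairwise contrasts and the interaction. Leaving out 1 library gave 6 to 12 in Tet2KO against WT, 1 to 4 in Id1KO against WT, 3 to 5 in dKO against WT, 2 to 6 in dKO against Tet2KO, 1 to 3 in dKO against Id1KO and 0 to 2 for the interaction. Of 615 checks of 28 single-gene calls, 479 kept the call, 136 lost it and 0 reversed its direction. RLE and upper-quartile scaling, TMM without mitochondrial and small structural RNA genes, and a stricter filter (10 counts throughout at least 1 genotype) kept all 28. With a length from the longest transcript, 32 of 36 levels per kb moved by more than 1 SD. The cause of lost calls was not tested.

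Replicate numbers were read from title suffixes. Deviations of same-numbered libraries correlated at -0.0972 to 0.113, and 6 of 12 libraries correlated best with their own number, so the numbers were not taken as pairs. With a replicate block in edgeR the counts were 11, 2, 4, 5, 3 and 1 in the order above. The calls of Ung in Tet2KO against WT (adjusted p = 0.0592), Mlh3 in Id1KO against WT (0.0581) and Polb in dKO against Id1KO (0.056) were lost. The 3 in dKO against Id1KO thus include a gene not called without the block.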

Other observations

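Among the 31 repair genes with a RefSeq promoter window, 25 held GGGCGG on either strand, 80.6%, beside 38.2% of all 27025 genes with a window. CCAAT occurred for 20, 64.5%, beside 41.1% of all genes. CACGTG, which is also a CANNTG, occurred for 7, 22.6%, beside 8.09%, and TTTCGCGC for 2, 6.45%, beside 0.374%. All genes with a window include genes not expressed in these cells, and base composition was not matched. The windows are descriptions of sequence, with no test.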
